A study of Mus musculus with 6 samples.

Results

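A clone of the mouse myoblast line C2C12 with silenced MyoD was compared with C2C12 controls at day 1 of myogenic differentiation, read on 2 dye-swapped arrays of the 6 arrays of the series (2 each at days 1, 3 and 6). The clone, MyoD(-)cl.A8, had been transfected with pcDNA 3.0 carrying the MyoD transcript in antisense and selected with G-418. The controls are labelled C2C12 control cells, and the sources used here do not say whether they carried an empty vector. Both were grown with fetal bovine serum and then moved to medium with horse serum. A single clone was used, so an effect of the clone and an effect of silencing cannot be told apart. On replicate A the clone was labelled with Cy5 and the control with Cy3, and on replicate B the dyes were exchanged. All features of the array were taken: 5376 spots per array, averaged to 2688 probes in duplicate spots and to 2466 features, of which 1521 were named genes and 945 unnamed probes.

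MyoD is a transcription factor that binds the E-box, written CANNTG, and turns on muscle genes in myoblasts. When serum is lowered, C2C12 myoblasts leave the cell cycle, express myogenin and then the contractile proteins, and fuse into myotubes. The first day belongs to the early phase of this programme, in which inhibitors of cyclin-dependent kinases such as p57 (CDKN1C) are known to hold cells out of division.

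Values are scores whose scale is not stated, given in score units after centring each array on its median, so no fold changes are given. Scores above 0 are read as higher in the clone. This direction is likely but not stated, and rests on labels that name the clone as test and the control as reference. Both arrays were read the same way, since they correlated across features at 0.21, against -0.08 to 0.12 between arrays of different days. Part of this margin rests on few features. Without the 20 features at least 2 units from 0 on the same side on both arrays, the correlation was 0.115. Those features were chosen for agreeing on these 2 arrays, so their removal lowers the correlation in any case. The range between days was taken over all features, so 0.115 cannot be set against it. Dye-swapped arrays count as 1 replicate, so day 1 has no test against biological spread. How far spots stood above background is unknown, and precision is limited by having 2 arrays. The array was built for human genes, and of its 1521 gene symbols 1426 are also mouse symbols, 50 are found only as mouse synonyms and 45 are not matched in the RefSeq table of GRCm38.p6. In RNA of whole cultures, fewer cells of a type and less RNA per cell cannot be told apart, and ratios give no level against which to check a cell type.

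A feature was counted when each array lay 2 units or more from 0, on the same side. By this rule 20 of 2466 features counted (0.811%), 13 higher in the clone (0.527%) and 7 lower (0.284%), and they included 8 genes. CDKN1C, TMSB10, IGFBP7 and ATOX1 were the lower genes, and HMGN4, BSG, DYNC1I2 and HSPE1 the higher ones. A further 2 features were as far from 0 with opposite signs, the splicing factor EFTUD2 at -3.16 on replicate A and 2.24 on replicate B and 1 unnamed probe. At 1 unit the rule counted 177 features (7.18%), 81 higher (3.28%) and 96 lower (3.89%), against 87 with opposite signs. With no threshold, 1322 features had the same sign on both arrays, 661 higher and 661 lower (26.8% each), and 1144 had opposite signs. Among features past the threshold on both arrays, the share with the same sign was 53.6% with no threshold, 67.0% at 1 unit and 90.9% at 2 units. Most features that were large on 1 array were not large on the other: 136 reached 2 units on replicate A and 154 on replicate B, in either direction, against 20 on both with the same sign. Of the features, 1986 had a mean within 1 unit of 0.

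**Figure D1:**
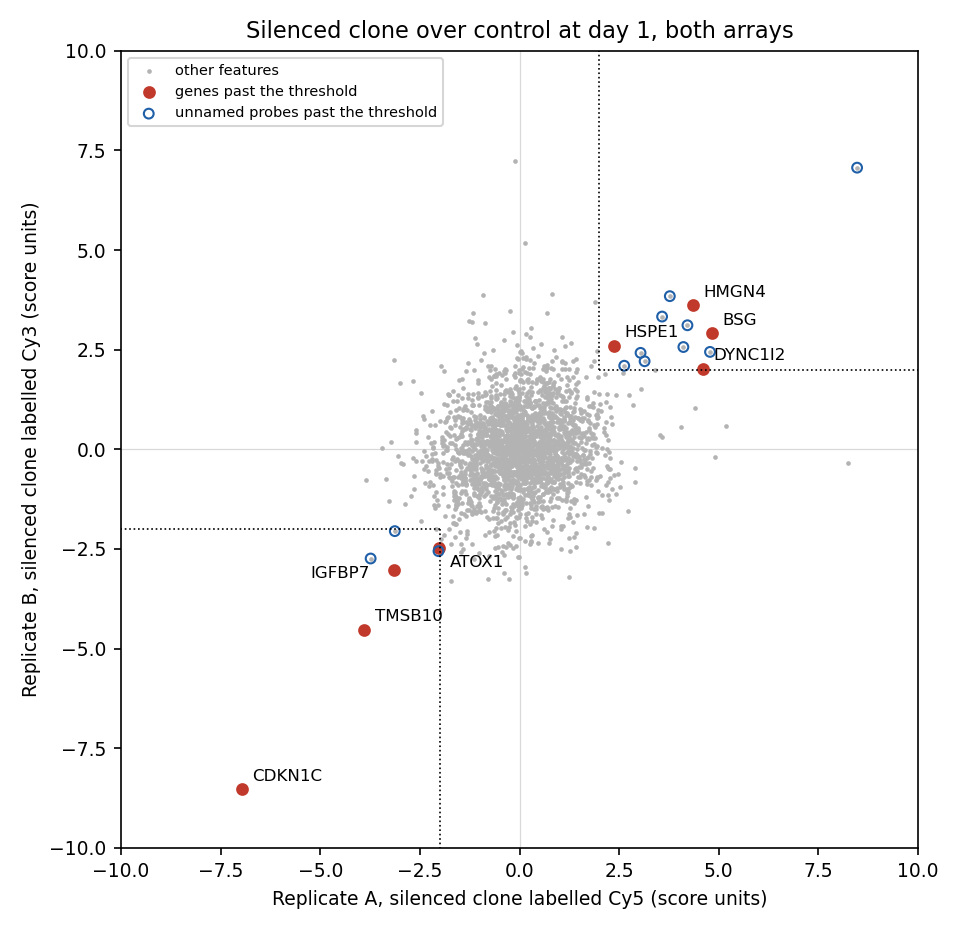
Day 1 scores of all 2466 features on replicate A (horizontal axis) and replicate B (vertical axis), in score units, with genes past 2 units on both arrays as filled red points, unnamed probes past it as open blue circles and dotted lines at the threshold. CDKN1C stands apart at the lower left with -6.97 and -8.53, and the 13 higher features lie in the upper right corner.

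RefSeq's promoter table for mouse (GRCm38.p6) holds 5 of the 8 genes, and their promoters are shown to set the lower genes beside the higher ones at the motif that MyoD binds. Each is the 250 bases before the first start site listed, 5′ to 3′ on the strand of the gene, with every CANNTG in capitals. Of the lower genes, Tmsb10 lies at chr6:72958749-72958998 on the minus strand, Igfbp7 at chr5:77408046-77408295 on the minus strand and Atox1 at chr11:55461209-55461458 on the minus strand. Of the higher genes, Hspe1 lies at chr1:55087898-55088147 on the plus strand and Dync1i2 at chr2:71211456-71211705 on the plus strand.
Tmsb10: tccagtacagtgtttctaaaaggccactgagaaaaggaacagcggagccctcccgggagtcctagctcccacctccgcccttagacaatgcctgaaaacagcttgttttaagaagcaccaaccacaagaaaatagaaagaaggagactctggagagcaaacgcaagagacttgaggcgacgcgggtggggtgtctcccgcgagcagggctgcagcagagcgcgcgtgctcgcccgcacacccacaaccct
Igfbp7: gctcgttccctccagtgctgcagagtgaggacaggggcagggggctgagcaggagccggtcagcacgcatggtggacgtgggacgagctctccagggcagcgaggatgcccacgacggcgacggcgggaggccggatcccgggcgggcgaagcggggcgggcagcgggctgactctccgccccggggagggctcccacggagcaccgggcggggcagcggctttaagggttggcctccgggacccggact
Atox1: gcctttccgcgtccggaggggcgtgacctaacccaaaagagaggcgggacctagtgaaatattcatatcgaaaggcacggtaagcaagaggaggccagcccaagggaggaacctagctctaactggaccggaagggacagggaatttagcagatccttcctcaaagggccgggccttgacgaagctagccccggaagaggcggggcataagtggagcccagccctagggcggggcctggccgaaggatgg
Hspe1: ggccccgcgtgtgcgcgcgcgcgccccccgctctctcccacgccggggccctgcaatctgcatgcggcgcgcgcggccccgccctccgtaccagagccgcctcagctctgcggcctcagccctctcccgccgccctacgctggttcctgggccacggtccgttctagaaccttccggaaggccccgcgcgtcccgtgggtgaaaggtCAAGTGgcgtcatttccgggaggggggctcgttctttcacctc
Dync1i2: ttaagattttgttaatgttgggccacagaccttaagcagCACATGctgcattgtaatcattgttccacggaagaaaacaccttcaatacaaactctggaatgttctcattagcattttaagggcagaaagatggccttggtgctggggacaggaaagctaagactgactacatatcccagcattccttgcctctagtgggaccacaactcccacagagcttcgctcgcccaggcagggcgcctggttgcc
No CANNTG stands in these letters for the 3 lower genes, and 1 stands in each of the 2 higher ones, 43 bases before the start for Hspe1 (CAAGTG) and 211 bases before it for Dync1i2 (CACATG). The motif reads the same on both strands. Among all 32851 promoter windows of this length, 66.2% hold at least 1. The table lists 2 further starts of Tmsb10, of which 1 has a CANNTG in its window, and 1 further start of Dync1i2, which has one as well. A match is a description of the letters and shows no binding.

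The silenced gene itself was read first. MYOD1 (Entrez Gene 4654), read by 1 probe, scored 0.41 on replicate A and -0.36 on replicate B, and its 4 spots ran from -0.38 to 1.10. The 2 arrays thus disagreed in sign and the mean was 0.02. The sources used here do not give the strand that the probe reads, and the antisense construct is itself made of MyoD sequence, so this value is no check of the silencing. The array measured 4 of the 7 markers listed for myoblasts and muscle, MYOD1 and 3 more: MYF6, a myogenic transcription factor, scored 0.54 and -0.29, DES, the muscle intermediate filament desmin, 0.44 and 1.78, and CHRNA1, an acetylcholine receptor subunit, -0.10 and 0.97. Of these 4 markers, DES alone had the same sign on both arrays. The sarcomere and Z-disc genes, which include DES, stood on both sides of 0, and 18 of 43 were below 0 and 10 above 0 on both arrays. Of all features, 26.8% were below 0 and 26.8% above 0 on both.

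ANKRD2, CDKN1C and S100A6, named in the title of the series, were all below 0 on both arrays, at very different sizes. CDKN1C (Entrez Gene 1028) encodes p57, an inhibitor of cyclin-dependent kinases. Its 4 spots read -6.43 and -7.52 on replicate A and -8.41 and -8.65 on replicate B, which gave -6.97 and -8.53 for the arrays and a mean of -7.75. No other feature was as low, and the next gene stood at -4.21. S100A6 (Entrez Gene 6277), which binds calcium and is also called calcyclin, scored -1.98 and -2.26, with 2 of its 4 spots past 2 units, so replicate A stopped just short of 2 units. ANKRD2 (Entrez Gene 26287), a muscle protein built of ankyrin repeats, scored -0.66 and -0.06, and its spots ran from -1.90 to 0.58. The study chose these genes itself, so their scores are not independent evidence.

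The other lower genes were TMSB10, IGFBP7 and ATOX1. TMSB10 encodes a thymosin that sequesters actin monomers, and it was low in all 4 spots, at -4.11 and -3.68 on replicate A and -4.93 and -4.12 on replicate B. Its mean was -4.21, about the same on both dyes. IGFBP7, which is secreted and binds insulin-like growth factors, read -0.85 and -5.45 on replicate A and -2.67 and -3.37 on replicate B. The array means of IGFBP7, -3.15 and -3.02, were close although its spots on replicate A were far apart. ATOX1, a chaperone that delivers copper to transport ATPases, read -1.72 and -2.32 on replicate A and -2.34 and -2.62 on replicate B, with a mean of -2.25. ATOX1 sat at the threshold on replicate A (-2.02), and with neighbouring probes subtracted it stood at -1.39 there.

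The higher genes encode proteins of unlike function. HMGN4, named for a nucleosome-binding protein, read 4.13 and 4.55 on replicate A and 4.88 and 2.34 on replicate B, with a mean of 3.97. Its symbol occurs in the mouse table only as a synonym of Hmgn2-ps1, and which mouse RNA its probe binds was not tested. BSG, the membrane glycoprotein basigin, read 5.33 and 4.32 on replicate A and 4.92 and 0.90 on replicate B, so 1 of its 4 spots stayed under 2 units. DYNC1I2, an intermediate chain of cytoplasmic dynein, read 4.94 and 4.24 on replicate A but 1.53 and 2.52 on replicate B, where its mean of 2.03 was at the threshold. With neighbouring probes subtracted, DYNC1I2 stood at 1.61 there. HSPE1, the mitochondrial co-chaperonin, was the smallest and the most even, with spots from 2.23 to 2.97 and a mean of 2.48. Among the 20 features, 10 had all 4 spots at least 2 units from 0, and 4 of those were genes: CDKN1C, TMSB10, HMGN4 and HSPE1.

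**Figure D2:**
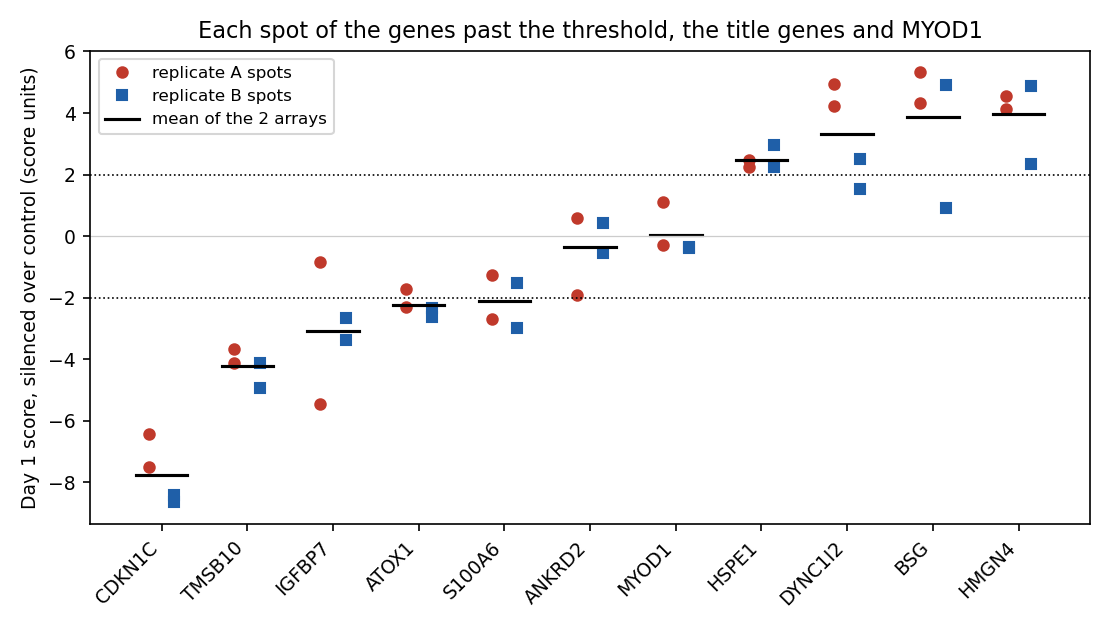
Day 1 score of each spot (score units) for the 8 genes past the threshold, the title genes and MYOD1, with replicate A as red circles, replicate B as blue squares, the mean of the 2 arrays as a black bar and dotted lines at 2 units on either side of 0. All 4 spots of CDKN1C lie between -8.65 and -6.43, while the spots of IGFBP7 spread from -5.45 to -0.85.

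A limma fit of all 6 arrays, with 1 coefficient per day, sets day 1 against the spread between dye-swapped arrays, which is technical. It called 6 of 2466 features (0.243%) at an adjusted p under 0.05, and 152 had an unadjusted p under 0.05. CDKN1C had a difference of -7.75 ± 0.773 (SE; limma's adjusted p = 0.000123) and TMSB10 -4.21 ± 0.638 (adjusted p = 0.00703). BSG had 3.86 ± 0.705 and HMGN4 3.97 ± 0.725 (limma's adjusted p = 0.0314 for both). The other 2 were unnamed probes, at 7.77 (spots 4045 and 4046) and 3.66 (spots 1121 and 1122). DYNC1I2 (adjusted p = 0.0806), IGFBP7 (0.0832), and the other genes past 2 units did not pass in limma. With the dye orientation of the arrays as a term, TMSB10 (limma's adjusted p = 0.0527), HMGN4 (0.0621) and BSG (0.155) did not pass, and CDKN1C was the one gene that did. With a robust prior the probe at spots 4045 and 4046 did not pass (limma's adjusted p = 0.188). Leaving out either day 1 array ended all 6 calls: CDKN1C had an adjusted p of 0.0574 in limma without replicate A and of 0.153 without replicate B.

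Just below the threshold, 26 features had both arrays at least 1.5 but under 2 units on the weaker side in the same direction, and 18 of them were genes, 6 higher and 12 lower. The lower ones included S100A6, enzymes of energy metabolism and FLYWCH1 (-1.53 and -1.74). SPR, which makes tetrahydrobiopterin, scored -2.11 and -1.99, and PGAM2, the muscle phosphoglycerate mutase of glycolysis, -1.98 and -2.37. AK1, the cytosolic adenylate kinase, scored -2.48 and -1.81, and ANXA2, a calcium-dependent membrane binder that partners with S100A10, -1.76 and -2.01. TUBB4B, a beta tubulin, was uneven at -1.73 and -3.31, as was TOMM7, a subunit of the mitochondrial import pore, at -1.72 and -2.39. MIF, a secreted cytokine, scored -1.86 and -1.68, RGL2, an exchange factor for Ral, -1.67 on both arrays, and DDIT4, an inhibitor of mTOR signalling, -1.63 and -1.85.

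On the higher side, HSPB1, the small heat shock protein Hsp27, scored 1.95 and 2.45 over 3 probes. All 6 of its spots on each array were above 0, and its probe means ran from 1.28 to 2.91. RPL17, a protein of the large ribosomal subunit, scored 2.60 and 1.91, but its 4 spots ran from 0.38 to 4.81. RPS21, of the small subunit, scored 1.88 and 2.22 over 3 probes whose means ran from 1.68 to 2.66. POPDC2, a membrane protein of striated muscle that binds cyclic AMP, scored 1.89 and 3.69, SLC35B2, a sulfate donor transporter of the Golgi, 2.14 and 1.89, and CCDC124, a coiled-coil protein, 1.66 and 1.82. Further down came NES, the intermediate filament nestin of myoblasts, at 1.47 and 1.68, A2M, a protease inhibitor, at 1.44 and 2.01, WSCD1 at 1.41 and 1.94, PPP1R16A, a phosphatase regulator, at 1.41 and 2.26, and XRCC6, the DNA repair protein Ku70, with a mean of 1.44.

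A set of genes was high on 1 array only. Of the features, 7 reached 4 units on 1 array and stayed under 2 units, or on the other side of 0, on the other, and 5 of these were genes. CD81, a membrane tetraspanin, read 8.24 on replicate A and -0.35 on replicate B, the widest gap. UBB, a ubiquitin gene, read 5.18 and 0.59, POLRMT, the mitochondrial RNA polymerase, 4.90 and -0.19, PADI2, a peptidylarginine deiminase, 4.05 and 0.56, and CHTOP, a chromatin-associated protein, 0.13 and 5.17. These means, such as 3.94 for CD81 and 2.88 for UBB, rest on a single array and were not counted. CD81, POLRMT, PADI2 and CHTOP were picked out after their values were seen.

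Gene lists were described by their median score and by how many members had the same sign on both arrays, beside a median of 0.02 over all features. The medians of lists are descriptions with no test, and the lists were drawn up with earlier results of these data known. The actin cytoskeleton and thymosin genes had the lowest median among lists of at least 6 measured genes, -0.73, with 9 of 11 members below 0 on both arrays, none above 0 on both and 2 of opposite signs. Besides TMSB10, these were led by TAGLN, the smooth muscle actin binder transgelin, at -1.62 and -1.08, and ACTG1, the cytoplasmic gamma actin, at -0.98 and -1.03. Across all features 26.8% were below 0 on both arrays. The list's median was -0.35 on replicate A and -1.03 on replicate B. Its mildest members were PFN1, the actin monomer binder profilin, at -0.35 and 0.00, and TLN1, the adhesion protein talin, at -0.44 and 0.20. TAGLN and the calponin CNN1 (-0.03 and -1.42) are also among the markers of other lineages that were looked at. Of those 12 markers 5 were measured, with summed scores of -2.997 on replicate A and -0.34 on replicate B. FABP4 and SCD of adipocytes scored 1.05 and -0.33, and 0.02 and 1.75, and VWF of endothelium -2.41 and 0.75. Their part in the scores of the actin genes was not tested.

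Muscle energy genes are those of glycolysis and of the creatine and adenylate kinases, with others such as FABP3, MB, SLC25A4, GYS1 and AMPD1. They had a median of -0.42 over 19 genes, with 11 below 0 and 4 above 0 on both arrays. Of all features, 26.8% were below 0 and 26.8% above 0 on both. At 1 unit on both arrays 5 counted as lower and 0 as higher, where 3.89% and 3.28% of all features did. These 5 were PGAM2, AK1, CKB, the brain-type creatine kinase, at -3.28 and -1.29, GPI, the glucose phosphate isomerase, at -1.33 and -2.22, and PFKM, the muscle phosphofructokinase, at -1.14 and -1.57. PGAM2 was read by 2 probes, with means of -2.78 and -1.56, and all its spots were below 0. At the other end, GYS1, the muscle glycogen synthase, scored 0.27 and 1.13, and AMPD1, the muscle AMP deaminase, was split at 2.16 and -0.88. CKM, the muscle creatine kinase, stood near 0 at -0.08 and -0.40.

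Sarcomere and Z-disc genes had a median of 0.00 over 43 genes and divided into 18 below 0 on both arrays, 10 above 0 on both and 15 of opposite signs, where 26.8% of all features were below 0 on both and 26.8% above. At 1 unit on both arrays 5 counted as lower and 1 as higher, where 3.89% and 3.28% of all features did. TNNI2, the inhibitory troponin of fast fibres, was read by 6 probes, all with means below 0, from -3.18 to -0.27. Of its 12 spots, 11 were below 0 on replicate A and 8 on replicate B, and the gene scored -2.13 and -1.47. ACTA1, the skeletal alpha actin, scored -1.18 and -1.57, MYL3, a slow myosin light chain, -1.52 and -1.22, MYOZ2, a calcineurin binder of the Z-disc, -1.36 and -1.11, and PDLIM3, a Z-disc LIM protein, -1.01 and -1.22. MYL11, the fast regulatory light chain, had the lowest mean, -2.31, but its arrays differed at -3.84 and -0.78. TCAP, the titin cap, was the gene counted as higher, at 1.44 and 1.33, and TRIM55, a ubiquitin ligase of the sarcomere, read 0.05 and 2.46. Myosin heavy chains stood near 0, with MYH7 at -0.10 and -0.28, MYH2 at 0.17 and -0.22 and MYH1 at 0.82 and -0.82.

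Excitation and contraction coupling genes had the highest median, 0.47 over 13 genes, with 7 above 0 and 2 below 0 on both arrays, and none counted at 1 unit. Of all features, 26.8% were above 0 and 26.8% below 0 on both arrays, and 3.28% and 3.89% counted at 1 unit. CACNG1, a calcium channel subunit, scored 0.66 and 1.97, TRDN, the triadin of the sarcoplasmic reticulum, 1.35 and 0.63, and CACNA1S, the voltage sensor of the T-tubule, -0.55 and -0.95 at the low end beside ATP2A2, the calcium pump, at -0.49 and -0.13. Of 25 myogenic regulators 6 were measured, and 2 were below 0 on both arrays: CSRP3, the muscle LIM protein, at -1.92 and -0.67, and MEF2D, a partner of MyoD, at -2.12 and -0.11. FHL3, a LIM protein, scored 0.35 and -0.25. Of the cell cycle genes 4 were measured. CCND3, the cyclin of differentiating muscle, scored -0.04 and -1.51, H2AZ1, a histone variant, -2.09 and -0.59, and MCM3, of the replicative helicase, -0.63 and -1.18. These 3 and CDKN1C, which the study chose, come from separate lists of cell cycle exit and proliferation, and CCND3 stood next to 0 on replicate A.

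**Figure D3:**
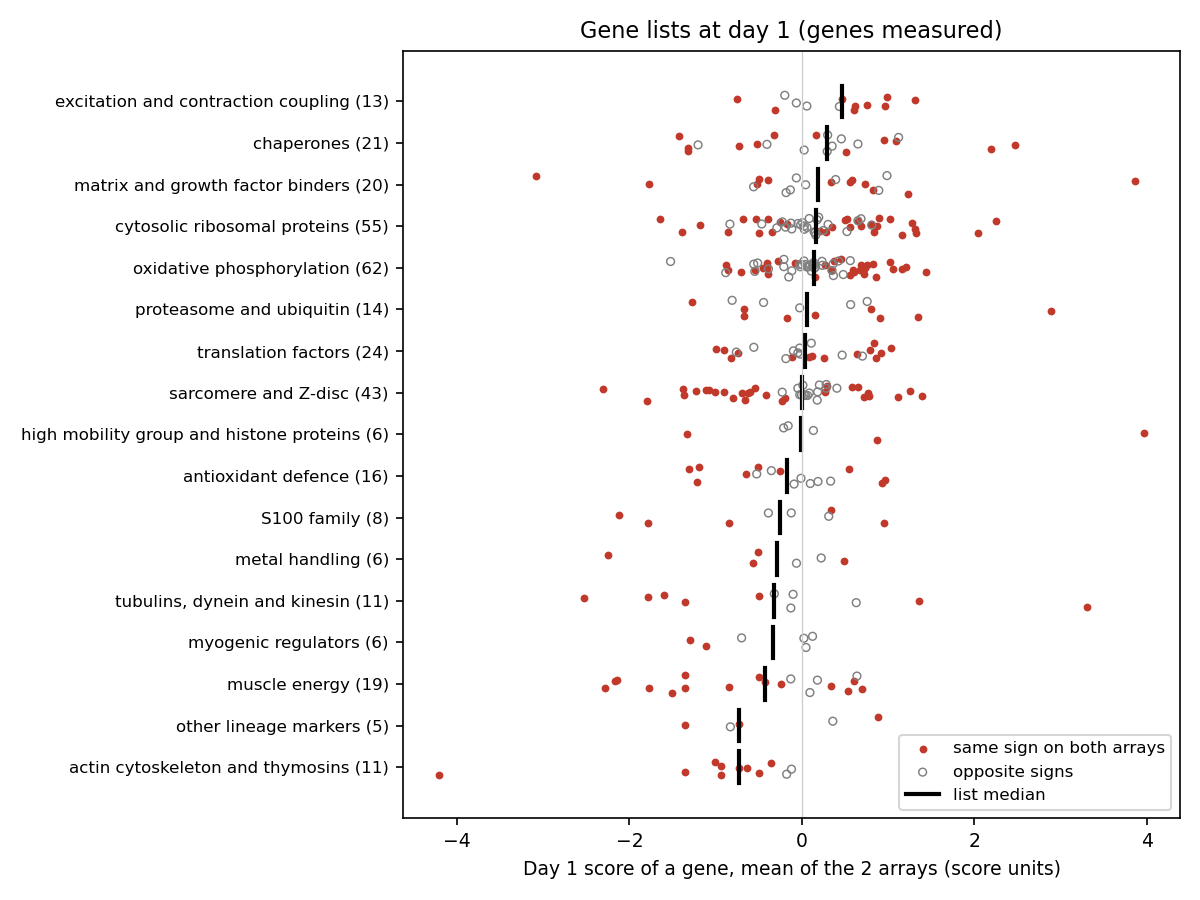
Day 1 score of each measured gene (mean of the 2 arrays, score units) in the 17 lists with at least 5 measured genes, with filled red points for genes of the same sign on both arrays, open grey circles for opposite signs and a black bar at the list median. The lists are ordered by median, from the actin cytoskeleton and the other lineage markers, both at -0.73 with CNN1 as their middle gene, at the bottom to excitation and contraction coupling at 0.47 at the top, and single genes such as TMSB10 and HMGN4 lie far from their lists.

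The S100 family, calcium-binding proteins that include S100A6, had a median of -0.26 over 8 genes, with 3 below 0 and 2 above 0 on both arrays. Of all features, 26.8% were below 0 and 26.8% above 0 on both. S100A11 scored -1.18 and -2.38, S100A12 0.47 and 1.45 and S100B 0.59 and 0.08. Tubulin, dynein and kinesin genes had a median of -0.32 over 11 genes and held members far apart: beside DYNC1I2 and TUBB4B, MAP1A, a microtubule-associated protein, scored -2.16 and -1.41, and TUBB, another beta tubulin, 1.29 and 1.44. Of the high mobility group and histone genes 6 were measured, and apart from HMGN4 and H2AZ1 they stayed within 1 unit of 0 by their means, with H3-3A, a replacement histone, at 0.82 and 0.92 and NAP1L4, a histone chaperone, at -0.75 and 0.33. Of the metal handling genes, ATOX1 was the one past 2 units. The copper carrier COX17 scored -1.04 and -0.11, and the metallothioneins MT1E and MT2A scored -0.57 and 1.02, and 0.21 and 0.76.

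Matrix and growth factor binder genes had a median of 0.19 over 20 genes, with IGFBP7 and MIF at the low end and BSG and SERPINH1, a collagen chaperone, at 1.73 and 0.75 at the high end. Chaperones had a median of 0.29 over 21 genes, but -0.30 on replicate A and 0.18 on replicate B. HSPE1 and HSPB1 led the chaperones, while CCT3 (-0.42 and -2.43) and TCP1 (-0.30 and -2.34), which are subunits of the same chaperonin ring, were lowest. The other measured subunits, CCT2 (-2.59 and 0.18) and CCT7 (-0.48 and 1.18), had opposite signs on the arrays. The spots of TCP1 ran from -5.16 to 0.63.

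The large housekeeping lists stood near 0. Of all features, 26.8% were above 0 and 26.8% below 0 on both arrays, and 3.28% and 3.89% counted at 1 unit. Cytosolic ribosomal proteins had a median of 0.16 over 55 genes, with 19 above 0, 11 below 0 and 25 of opposite signs, and ranged from RPS23 (-2.92 and -0.37) and RPS20 (-1.60 and -1.19) to RPL17. Oxidative phosphorylation genes had a median of 0.14 over 62 genes, with 20 above 0 and 10 below 0 on both arrays and 32 of opposite signs, and 0 counted at 1 unit in either direction. Its ends were NDUFV3 (-3.24 and 0.19) and NDUFS6 (-1.82 and 0.05) of complex I at the low side and UQCRB (0.33 and 2.54) of complex III and NDUFA7 (1.72 and 0.71) of complex I at the high side. Translation factors had a median of 0.03 over 24 genes, from EIF3H (-1.37 and -0.63) and EIF3K (-0.58 and -1.22) to EIF4A2 (1.13 and 0.71) and EIF4G1 (1.15 and 0.93). Proteasome and ubiquitin genes had a median of 0.06 over 14, from PSMC1 (-0.59 and -1.97) and PSMC3 (-2.24 and 0.62) to PSMD2 (0.61 and 2.09) and UBB. Antioxidant genes had a median of -0.17 over 16, from PRDX2 (-1.70 and -0.93) and GPX1 (-0.46 and -1.97) to SELENOW (1.11 and 0.76) and GSTK1 (1.04 and 0.90).

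The remaining 12 of the 20 features were probes without a gene name. The highest mean of the day, 7.77, belonged to one of them, at spots 4045 and 4046, with 8.46 and 8.48 on replicate A and 6.56 and 7.58 on replicate B. A run of 11 unnamed probes at spots 3577 to 3598 held 5 of the 9 unnamed higher features. It was picked as the longest stretch of adjacent unnamed probes at 1.5 units or more on replicate B. Its high values and its ends on replicate B were thus set by that choice. In this run every second probe was high on both arrays, from 3.04 to 4.78 on replicate A and from 2.42 to 3.84 on replicate B, while the probes between and beside them read from -0.92 to 1.35 on replicate A and from 1.59 to 3.86 on replicate B. The unnamed lower features were at spots 1137 and 1138 (-3.74 and -2.74), 3241 and 3242 (-3.13 and -2.05) and 159 and 160 (-2.03 and -2.56). Scores were weakly correlated along the spot order. At day 1 probes 2 places apart correlated at 0.11 and 0.16 within an array and adjacent probes at 0.07 and 0.06. Duplicate spots correlated at 0.25 and 0.33. The cause of the correlation between probes was not tested. With neighbouring probes subtracted, 17 features counted, 15 of them among the 20.

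**Figure D4:**
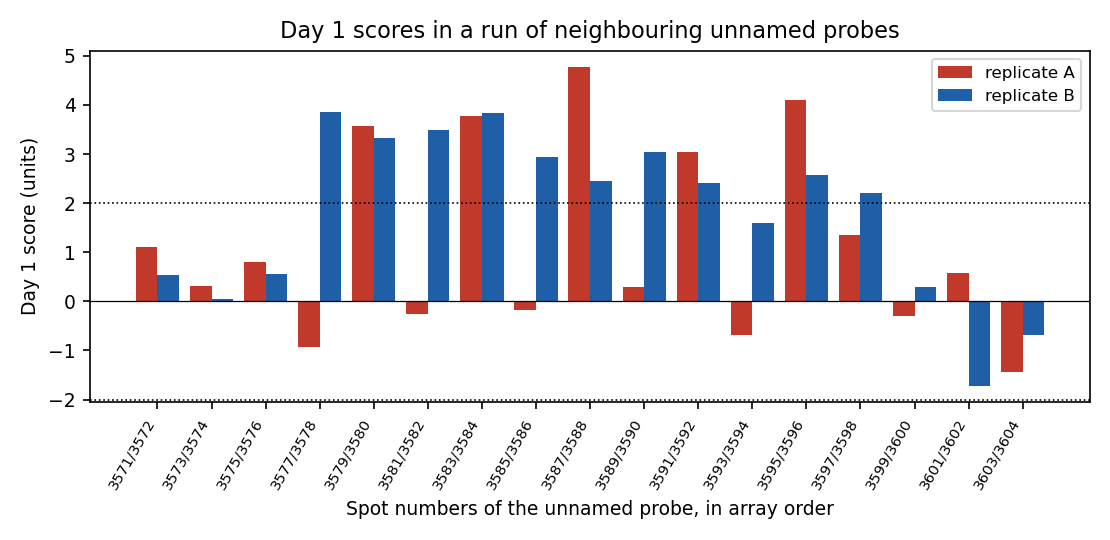
Day 1 scores (score units) of 17 neighbouring unnamed probes in array order, with replicate A as red bars, replicate B as blue bars and dotted lines at the threshold of 2 units. The run from spots 3577 to 3598 was picked for values of 1.5 units or more on replicate B, and replicate A is high there at every second probe.

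Days 3 and 6 were used to test which scores differed at day 1. In limma, the contrast of day 1 with the mean of days 3 and 6 called 6 of 2466 features (0.243%), and 182 had an unadjusted p under 0.05. CDKN1C was lower at day 1 by -8.36 ± 0.947 (SE; limma's adjusted p = 0.000414): it read 1.80 and -0.58 at day 3 and 1.76 and -0.54 at day 6. HMGN4 was higher at day 1 by 5.73 ± 0.888 (limma's adjusted p = 0.00681), having read 0.94 and -1.67 at day 3 and -2.50 and -3.79 at day 6. BSG was higher by 4.99 ± 0.863 (limma's adjusted p = 0.0181), with -1.18 and 0.16 at day 3 and -1.05 and -2.42 at day 6. RPL17 was higher by 4.84 ± 0.893 (limma's adjusted p = 0.0292), with -0.18 and -2.61 at day 3 and -2.92 and -4.66 at day 6. Leaving out either day 1 array ended these calls. BSG no longer passed without the day 3 replicate A (limma's adjusted p = 0.158), nor RPL17 without the day 6 replicate B (0.0527), and without the day 3 replicate B HMGN4, BSG and RPL17 no longer passed (limma's adjusted p = 0.0668, 0.0777 and 0.184).

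Other day 1 genes kept their side of 0 or did not pass this contrast. TMSB10 was below 0 on all 6 arrays, with day 3 values of -1.59 and -0.55 and day 6 values of -1.93 and -2.64. IGFBP7 was below 0 on all 6 as well, with -2.43 and -0.34, then -1.34 and -0.65. ATOX1 was above 0 on all 4 later arrays, up to 2.78. HSPE1 stayed high at day 3 (2.34 and 3.17) and split at day 6 (2.14 and -0.97), and DYNC1I2 was below 0 on both day 6 arrays (-1.49 and -2.05). S100A6 read further below 0 on the later days, at -5.72 and -7.04 and at -3.72 and -7.47. Of the 13 features higher at day 1, 4 were above 0 on all 4 later arrays, 0 were below 0 on all 4, and 5 were below 0 on both day 6 arrays. The 4 were unnamed probes, at spots 441 and 442, 3583 and 3584, 3587 and 3588, and 3595 and 3596. All but the first lie in the run at spots 3577 to 3598. Of the 7 lower features, 2 stayed below 0 on all 4 later arrays. Shares over all features were not taken for the counts of higher and lower features. These counts therefore cannot be read as persistence or reversal of the day 1 features.

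**Figure D5:**
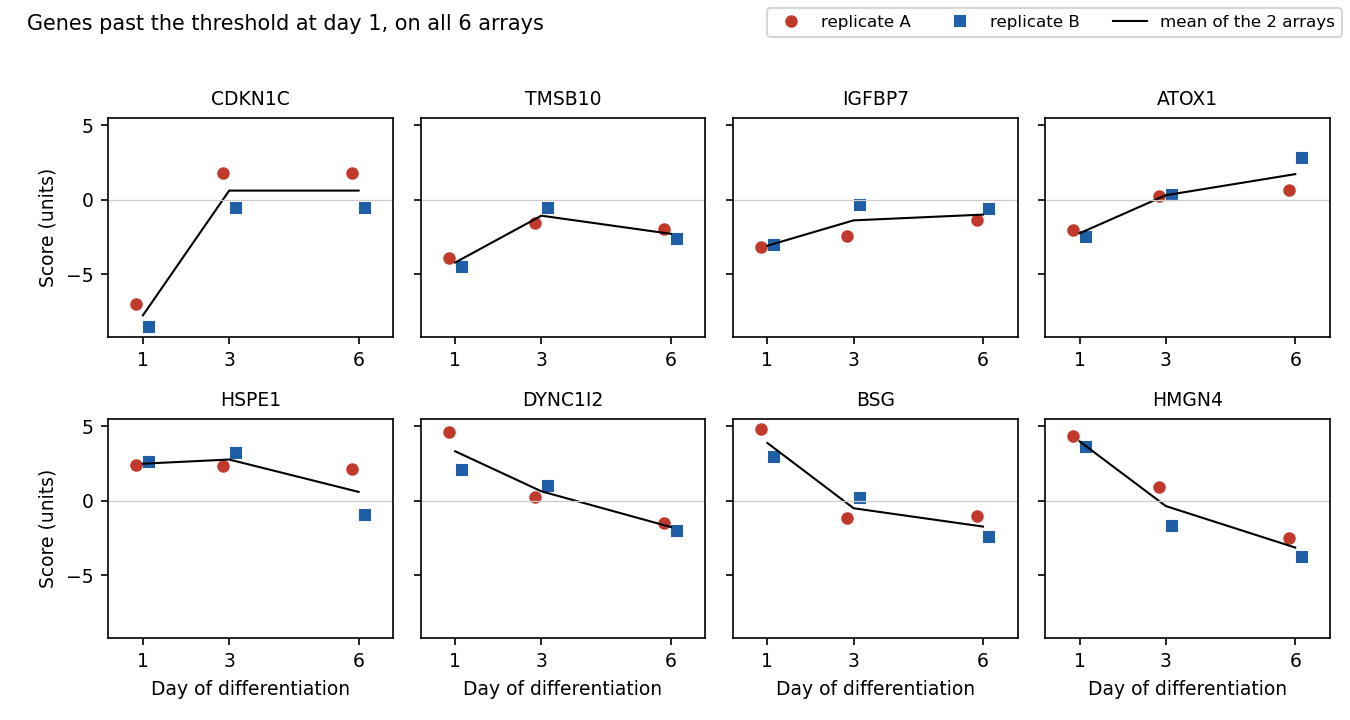
Scores (score units) of the 8 genes past the threshold at day 1 on all 6 arrays by day of differentiation, with replicate A as red circles, replicate B as blue squares and a line through the mean of the 2 arrays. The mean of CDKN1C lies at -7.75 on day 1 and at 0.61 on both later days, where its 2 arrays lie on opposite sides of 0. TMSB10 and IGFBP7 stay below 0, and the means of DYNC1I2, BSG and HMGN4 go from above 0 to below 0.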

How the data were processed

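RNA of clone and control at each day was labelled with a tyramide kit and hybridised to a 2-colour muscle array made for human genes, per the labels' protocols. The authors deposited a score per spot; the scanner, background correction, normalization and scale are not given in the sources used here. Because 2 values passed 16, the limit for log2 ratios from 16-bit scans, scores were not treated as log2. Each odd spot was averaged with the next even spot, then the probes of a gene, and arrays were centred on their medians. A platform annotation named the genes, and 144 genes had more than 1 probe.

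The day 1 count has no test. limma 3.58.1 in R 4.3.3 (lmFit, eBayes, two-sided, Benjamini-Hochberg, threshold 0.05) fitted 6 arrays with 1 coefficient per day; its p-values measure only the spread between arrays. The fit was tested on 5 simulated sets of independent normal noise with a common spread. There limma recovered 49% of changes of 2 units and 99.8% of changes of 4 units, with 3.46% false calls. The rule of 2 units on both arrays found 29% and 97.4%, and counted a mean of 1.4 unchanged features per simulated set. Correlation along the spot order and unequal spread, as on the real arrays, were not simulated. Named genes are MYOD1, the title genes, the 15 highest and 15 lowest genes of the same sign on both arrays by the smaller score, and the 2 highest and 2 lowest members of each of 20 lists plus members past 2 units; 1 gene of this rule is not reported here. CHRNA1 is given as a cell type marker, and other list members and genes large on 1 array were chosen after their values were seen. Members, lists and thresholds were chosen with earlier results of these data known. Alternatives were values as deposited, scale normalization, probes by median or separate, 10 neighbouring probes subtracted, other thresholds, single arrays, a robust prior (statmod 1.5.0) and the array letter as a term. The neighbouring probes lay at every second place from 2 to 10 on either side, so directly adjacent probes were not used. Python 3.11.15 and matplotlib 3.10.9 drew the figures.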

Additional observations from a re-analysis of the deposited data

Results flagged for a closer look

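Day 1 differed from the mean of days 3 and 6 for 6 features in limma's contrast against the spread between dye-swapped arrays. The differences were -8.36 for CDKN1C, 5.73 for HMGN4, 4.99 for BSG and 4.84 for RPL17. They were 11.3 for the unnamed probe at spots 4045 and 4046 (limma's adjusted p = 0.000414) and 5.75 for that at spots 1121 and 1122 (0.00562). The probe at spots 4045 and 4046 read 8.47 and 7.07 at day 1, 0.72 and -5.86 at day 3 and -4.45 and -4.39 at day 6. That at spots 1121 and 1122 read 4.21 and 3.11, then -0.82 and 1.06, then -3.59 and -5.00. Groups of 2 arrays are too small for a search for single outlying arrays.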

How the results depend on the processing

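The count of 20 features was 21 as deposited, 30 with scale normalization, 21 with the median of probes, 26 with separate probes and 17 with neighbouring probes subtracted, and 14 probes had all 4 spots past 2 units. It moved to 9 with named genes alone, centred on genes, with 4 higher and 5 lower. Under the main centring, 4 genes were higher and 4 lower, and of all features 13 and 7. These directions reverse if the sign of the scores is turned. The count of 20 moved to 177 at 1 unit, 46 at 1.5, 11 at 2.5 and 8 at 3 units. On single arrays it moved to between 136 and 154.

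limma's day 1 count of 6 moved to 11 with scale normalization and to 11 with a robust prior, both of which added DYNC1I2 (adjusted p = 0.0371 and 0.0257) and IGFBP7 (0.0371 and 0.0384), and to between 0 and 1 without a day 1 array. The robust prior kept 5 of the 6 and lost the probe at spots 4045 and 4046 (0.188). With the array letter as a replicate block, which marks the dye orientation, it was 2: CDKN1C and the probe at spots 4045 and 4046 passed, and TMSB10 (limma's adjusted p = 0.0527), HMGN4 (0.0621), BSG (0.155) and the probe at spots 1121 and 1122 (0.184) did not. Arrays of the same letter did not deviate together (r of -0.00184, -0.0120 and -0.0377 between days), so the letters do not pair the arrays. The contrast count of 6 was 5 with the replicate block, where BSG had an adjusted p of 0.0862 in limma, and ran from 0 to 11 without 1 array: 0 and 1 without a day 1 array, 3 without the day 3 replicate B and 11 without the day 6 replicate A. The cause of these moves was not tested, beyond the fewer arrays.

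No called gene score changed sign under any alternative run. The rule of 2 units on both arrays fixed this in advance for single arrays, scale normalization and values as deposited. Each called gene has 1 probe, so the median of probes could not change it either. Only the subtraction of neighbouring probes could have turned a sign. The list medians changed sign for myogenic regulators and chaperones without replicate B, for translation factors with the median of probes, for antioxidant genes with neighbours subtracted, and for the sarcomere, high mobility group and metal handling lists under 2 or 3 alternatives. The median of the actin list ran from -1.03 to -0.35, of muscle energy genes from -0.62 to -0.31 and of coupling genes from 0.15 to 0.63. Signal over background is unknown, which limits low scores.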
